A study of Mus musculus with 14 samples.

Results

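The genes examined were 10 that encode apolipoproteins or act in the assembly of very-low-density lipoprotein (VLDL): Apob, Mttp, Apoa1, Apoc3, Apoa4, Apoa5, Apoe, Apoc1, Apoa2 and Apom. Open-chromatin intervals belonged to a gene if their midpoint lay inside its RefSeq bounds, or otherwise if it was the nearest protein-coding gene within 50 kb. An interval inside the bounds of 2 genes went to the shorter one, which gave 2 high-fat intervals inside Apoa2 to its neighbour Tomm40l and touched no other gene of the 10. By this rule the 10 genes held 118 of 88203 intervals in the chow table (0.134%) and 129 of 105801 in the high-fat table (0.122%). Accessibility was measured by ATAC-seq, in which a transposase cuts and tags open DNA, in liver nuclei prepared from 50 mg of frozen tissue from each of 14 female mice. All mice carried floxed alleles of matrin-3 (Matr3, which encodes an RNA- and DNA-binding protein of the nuclear matrix). The liver-specific knockouts (LKO) also carried Albumin-Cre, a recombinase driven by the albumin promoter and so active in hepatocytes. Recombination in other liver cells was not measured here. From 7 weeks of age the mice ate chow (3 LKO and 3 floxed littermates) or a diet with 60 kcal% fat (4 LKO and 4 floxed littermates) for 16 weeks. A 12 h fast preceded collection in the high-fat mice per the labels, while for the chow mice the feeding state was not given in the sources used here.

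Hepatocytes pack triglyceride onto apolipoprotein B as that protein is made. Microsomal triglyceride transfer protein, encoded by Mttp, loads the lipid, and the particle leaves the cell as VLDL. Smaller apolipoproteins join it there or in plasma: the products of Apoc3 and Apoa5 act in opposite directions on lipoprotein lipase, that of Apoe is the ligand for uptake by the liver, those of Apoa1 and Apoa2 are the main proteins of high-density lipoprotein (HDL), and that of Apoa4 is made with triglyceride-rich particles. Apoa1, Apoc3, Apoa4 and Apoa5 are neighbours on chromosome 9 and are described singly and as 1 locus.

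Reads inside intervals totalled 15.5 to 35 M per chow library and 7.59 to 10.4 M per high-fat library, and the chow libraries numbered 2 in both genotypes were the shallowest, at 15.5 and 17.1 M. Levels below are CPM, that is, read counts per M reads of the TMM-scaled library, and fold changes are LKO over floxed on the log2 scale with a standard error (SE). The SE was derived from the edgeR test, as the absolute log2 fold change divided by the square root of the F statistic. An interval is termed called if its edgeR quasi-likelihood p, adjusted by Benjamini-Hochberg over every interval of its table, was under 0.05. Summed over its 7 intervals in each table, Matr3 itself held 89.3 to 95.2 CPM in chow LKO and 95.7 to 99.1 CPM in chow floxed livers. On the high-fat diet it held 77.0 to 86.3 CPM in LKO and 74.3 to 104.9 CPM in floxed livers, and none of its intervals was called. Because the position of the floxed segment was not given in the sources used here, Matr3 accessibility cannot serve as a check of genotype. All 10 hepatocyte markers listed had intervals, summing to 3425 to 4989 CPM in high-fat LKO and 3694 to 6744 CPM in high-fat floxed livers. Of their 327 high-fat intervals 38 were called lower (11.6%, beside 0.303% of all high-fat intervals), in Alb, Tat, Trf and Ttr, and 1 higher (0.306%, beside 0.448%), assigned to Alb. The other markers listed, Cps1, Ahsg, Serpinc1, F2, Fgb and Hp, had no called high-fat interval. The median fold change of the 327 was -0.10, and 1 of the 10 gene sums was called. Chow sums of the 10 markers were 5217 to 6361 CPM in LKO and 5970 to 8194 CPM in floxed livers. Of their 322 chow intervals 1 was called, higher (0.311%, beside 0.00113% of all chow intervals), again assigned to Alb. No interval of the Kupffer cell, sinusoidal endothelium, stellate cell, biliary, lymphocyte or neutrophil lists was called in either table, against a smallest edgeR adjusted p of 0.137 for these lists, seen in Kupffer cell genes on the high-fat diet. Kupffer cell markers summed to 169.7 to 187.7 CPM in high-fat LKO and 137.6 to 180.8 CPM in high-fat floxed livers, with 9 of 10 genes present. Krt7, Krt19 and Cftr of biliary cells, Dcn of stellate cells, Timd4 of Kupffer cells, Retnlg of neutrophils and Cd3g, Cd8a, Ms4a1 and Nkg7 of lymphocytes had no interval in either table. The part of these marker differences in the results below was not tested.

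Promoter sequence was at hand for 8 of the 10 genes (RefSeq, GRCm38.p6, the assembly that mm10 names). Apob, Apoa4, Apoa2 and Apoa5 are shown because the results below turn on them, as the 250 bases before an annotated start, 5′ to 3′ on the strand of the gene. Capitals mark matches, on either strand, to AGGTCA (nuclear receptor half-site), CAAAGTCCA (HNF4A), TGTTTAC (FOXA), TTGCGCAA (C/EBP), TATAAA (the core promoter box) or CACGTG (E-box).
Apob, chr12:7977427-7977676, + strand: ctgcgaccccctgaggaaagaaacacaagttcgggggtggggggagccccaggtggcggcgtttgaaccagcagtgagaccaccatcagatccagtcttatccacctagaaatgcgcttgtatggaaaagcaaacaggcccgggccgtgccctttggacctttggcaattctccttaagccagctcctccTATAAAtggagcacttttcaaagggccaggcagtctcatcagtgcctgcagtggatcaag
Apoa4, chr9:46240594-46240843, + strand: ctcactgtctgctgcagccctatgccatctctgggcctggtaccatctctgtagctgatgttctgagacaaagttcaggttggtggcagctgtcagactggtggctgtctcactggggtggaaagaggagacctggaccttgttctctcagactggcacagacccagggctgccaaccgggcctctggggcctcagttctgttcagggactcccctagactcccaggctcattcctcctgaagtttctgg
Apoa2, downstream of its 2 starts, chr1:171224804-171225053, + strand: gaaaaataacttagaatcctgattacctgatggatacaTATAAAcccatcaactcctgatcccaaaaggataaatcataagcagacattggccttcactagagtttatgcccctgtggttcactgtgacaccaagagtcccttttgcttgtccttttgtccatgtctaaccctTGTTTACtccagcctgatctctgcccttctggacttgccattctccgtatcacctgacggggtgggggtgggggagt
Apoa5, upstream of its 2 starts, chr9:46268358-46268607, + strand: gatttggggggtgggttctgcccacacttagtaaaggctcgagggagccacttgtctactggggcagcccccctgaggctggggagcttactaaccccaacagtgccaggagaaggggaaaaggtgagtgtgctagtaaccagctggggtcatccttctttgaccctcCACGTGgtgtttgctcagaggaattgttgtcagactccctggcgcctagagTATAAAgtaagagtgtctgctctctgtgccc
Positions are counted back from the start, the base before it being -1. Apob held TATAAA at -60 to -55, Apoa5 held TATAAA at -31 to -26 and CACGTG at -82 to -77, and Apoa2 held TGTTTAC at -77 to -71 and TATAAA at -212 to -207. None of these matches overlapped another, and the Apoa4 stretch held none of the 6 motifs. Among all 32851 promoters in the RefSeq table the same 250 bases held TATAAA in 12.4%, CACGTG in 6.02%, TGTTTAC in 3.17%, AGGTCA in 14.0%, CAAAGTCCA in 0.384% and TTGCGCAA in 0.164%. A letter match is a description of the sequence and not evidence of binding.

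Among the 129 high-fat intervals 8 were called, 3 higher and 5 lower in LKO. With the 2 intervals shared with Tomm40l counted for Apoa2, an alternative added after the data were seen, 10 were called, 7 of them lower. All 3 higher ones belonged to Apoa4, while 4 of the lower ones lay in the Apob gene and 1 in Apoa2. Interval names carry the genotype whose peak calls gave them. By name the 3 Apoa4 intervals came from LKO and these Apob and Apoa2 intervals from floxed livers. Each thus entered through the genotype where it was higher, so its direction is not independent of how intervals were chosen. Of all high-fat intervals 0.751% were called, 0.448% higher and 0.303% lower, against 6.2% of those of the 10 genes. The median level was 8.51 CPM for intervals of the 10 genes and 6.74 CPM for all high-fat intervals, and its part in the share called was not tested. Of the hepatocyte marker intervals 11.6% were called lower, as given above. The fold change was below 0 in 104 of the 129 and above 0 in 25, with a median of -0.25 beside 0.00 over all intervals. Groups did not overlap in 19 of the 129 (14.7%), as in 5.3% of all high-fat intervals. DESeq2 and limma-voom each called 9 of the 129, as they did 0.784% and 0.62% of all high-fat intervals, and a fit with the column number as a replicate block called 19, beside 1.34% of all. Leaving out single libraries moved the number called from 8 to 4 without LKO 3, 2 without LKO 4, 4 without floxed 2, 17 without floxed 3 and 4 without floxed 4. Without LKO 1, intervals of Apoe, Apoa1 and Apoa5 and further ones of Apoa4 were called too. For these reduced fits the share called of all intervals is not given here, so their counts cannot be read as particular to the 10 genes. In whole liver, a change in the share of cells of a type and a change in accessibility per cell cannot be told apart.

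On chow none of the 118 intervals was called by edgeR, against 0.0227% of all chow intervals (0.00113% higher and 0.0215% lower), and the smallest adjusted p was 0.316. Their median fold change was -0.08 beside 0.00 over all intervals, with 69 below 0 and 49 above. An unadjusted edgeR p under 0.05 was reached by 20 of them (16.9%), as by 6.77% of all chow intervals. Groups did not overlap in 8 (6.78%), as in 11.7% of all chow intervals. DESeq2 and limma-voom each called the same Apoa1 interval, described below, beside 0.617% and 0.768% of all chow intervals, and the replicate block called none, beside 0.143%. Without floxed 2, 1 of the shallow libraries, edgeR called 6, all lower, in Apoa1, Apoa5 and Apob, and without both libraries numbered 2 it called 0. The share called of all chow intervals in these 2 fits is not given here.

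Summing the reads of all intervals of a gene gives 1 value per gene, tested over all 16280 genes with a high-fat interval and all 15932 with a chow interval. Of the 10 genes, Apoa4 rose and Apoa2 fell on the high-fat diet, against 0.344% of all genes called. The other high-fat sums had edgeR adjusted p-values of 0.178 to 0.888. On chow 0 of 10 passed with edgeR, DESeq2 or limma-voom, as 0% of all genes passed with edgeR, and 2 of 10 had an unadjusted p under 0.05 beside 6.57% of all genes. Those were Apoa5, at -0.72 (SE 0.27), and Apoa1, at -0.47 (SE 0.18), with adjusted p-values of 0.718 from edgeR in each case.

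**Figure D1:**
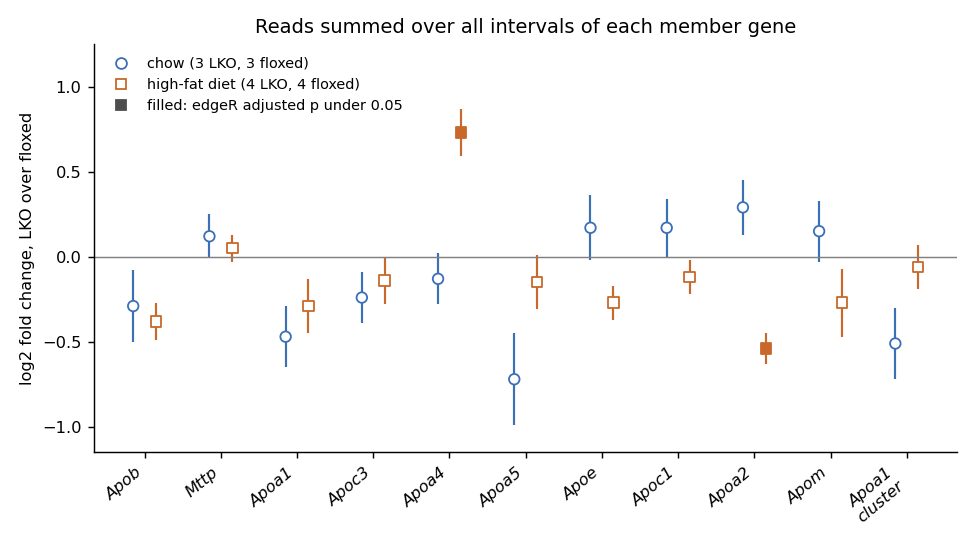
Log2 fold change, LKO over floxed, of reads summed over all intervals of each gene and over the Apoa1 cluster. Bars are the standard error derived from the edgeR test, circles chow and squares the high-fat diet. Only Apoa4 (0.73) and Apoa2 (-0.54), both on the high-fat diet, are filled as past an adjusted p of 0.05.

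Apob, the structural protein of VLDL, carried the most intervals of the 10 genes, 57 on the high-fat diet and 50 on chow (chromosome 12, 7977629 to 8016839). Under high-fat feeding 4 intervals within the gene fell, all 15.9 to 27.5 kb from its start, and 53 of the 57 had a fold change below 0. The interval with the smallest p (8002374 to 8002874) held 6.33, 6.95, 4.96 and 5.43 CPM in LKO 1 to 4 and 11.2, 10.9, 7.79 and 14.2 CPM in floxed 1 to 4. All LKO values lay below all floxed values, with floxed 3 nearest to them. It fell by 0.89 (SE 0.20, edgeR adjusted p = 0.0248). A second interval (8004397 to 8004897) held 6.55, 6.95, 5.09 and 5.93 CPM in LKO and 12.2, 10.5, 7.79 and 13.0 CPM in floxed livers, again without overlap, and fell by 0.83 (SE 0.20, edgeR adjusted p = 0.0373). Its neighbour (8004921 to 8005421) held 7.94, 11.7, 6.66 and 6.57 CPM in LKO and 15.8, 16.8, 9.80 and 16.4 CPM in floxed livers. Here LKO 2 lay above floxed 3, so the groups overlapped, and the interval fell by 0.83 (SE 0.20, edgeR adjusted p = 0.0354). The fourth (7993301 to 7993801) held 6.97, 10.8, 3.79 and 7.20 CPM in LKO and 13.8, 11.7, 12.4 and 15.1 CPM in floxed livers without overlap, and fell by 0.87 (SE 0.21, edgeR adjusted p = 0.0414). Each of the 4 calls was lost when LKO 3, LKO 4, floxed 2 or floxed 4 was left out, where the adjusted p reached 0.173 to 0.192, and 3 of them also without other single libraries.

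The start of Apob behaved otherwise. Its interval there (7977446 to 7977946), which covers 231 of the 250 printed bases, was the highest of the gene on the high-fat diet. It held 25.0, 20.2, 20.1 and 21.0 CPM in LKO and 23.9, 23.7, 21.1 and 18.9 CPM in floxed livers. The groups overlapped throughout, with a fold change of -0.02 (SE 0.13, edgeR adjusted p = 0.978). Split by distance from the start, the median high-fat fold change was -0.29 over 12 intervals in the first 10 kb, -0.53 over 12 between 10 and 20 kb, -0.71 over 14 between 20 and 30 kb and -0.22 over the last 7. Between 20 and 30 kb the intervals summed to 85.7, 110.3, 62.7 and 93.6 CPM in LKO and 138.2, 144.0, 109.4 and 165.7 CPM in floxed livers, where LKO 2 lay just above floxed 3. The sum over all 57 intervals was 463, 535, 349 and 445 CPM in LKO against 601, 607, 506 and 624 CPM in floxed livers. LKO 2 again exceeded floxed 3, and the fold change of -0.38 (SE 0.11) did not pass (edgeR adjusted p = 0.178).

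On chow no Apob interval was called, and the lowest values lay nearer the start. In the first 10 kb the median fold change over 13 intervals was -0.77, all 13 below 0, whereas it was -0.20 over 10 intervals between 10 and 20 kb and 0.15 over 10 between 20 and 30 kb. The summed level of the first 10 kb was 173.1, 135.4 and 161.0 CPM in LKO 1 to 3 and 337, 144.0 and 225 CPM in floxed 1 to 3. Floxed 1 stood far above the other libraries, and floxed 2 lay among the LKO values. The interval with the smallest p there (7980494 to 7980994) held 13.4, 9.91 and 10.6 CPM in LKO and 33.3, 14.5 and 18.2 CPM in floxed livers, a fold change of -0.96 (SE 0.27, edgeR adjusted p = 0.426). At the start (7977455 to 7977955) the values were 32.4, 21.5 and 30.1 CPM in LKO and 39.4, 19.1 and 34.4 CPM in floxed livers, overlapping, with a fold change of -0.15 (SE 0.24, edgeR adjusted p = 0.894). Over all 50 intervals the chow sum was 575, 484 and 493 CPM in LKO and 788, 415 and 694 CPM in floxed livers, at -0.29 (SE 0.21, edgeR adjusted p = 0.718), and at -0.10 without floxed 1. For the difference between diets no matched Apob interval passed, with a smallest edgeR adjusted p of 0.161. The nearest coding genes outside Apob lie far off: Ldah, 191 kb beyond its end, had a high-fat sum at -0.05 (SE 0.08) and a chow sum at -0.10 (SE 0.08), and Klhl29, 2602 kb away on the other side, 0.25 (SE 0.13) and -0.16 (SE 0.16).

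**Figure D2:**
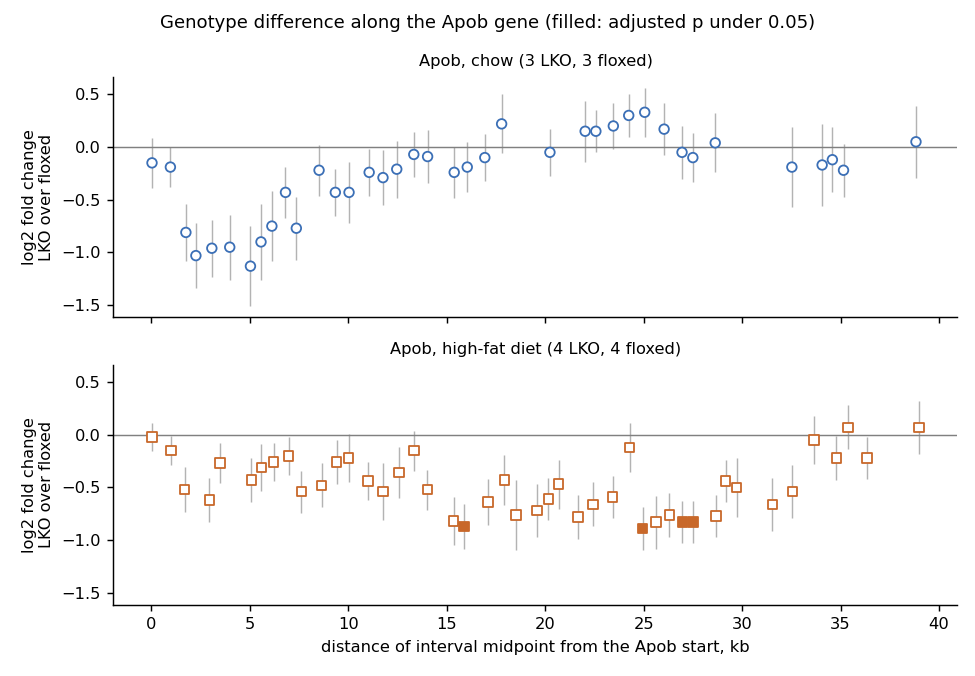
Log2 fold change, LKO over floxed, of each interval inside Apob against the distance of its midpoint from the start in kb, for chow (upper panel) and the high-fat diet (lower panel); bars are standard errors and filled symbols are called. Chow values are lowest in the first 10 kb (median -0.77), high-fat values between 20 and 30 kb (median -0.71), and the start is near 0 in both panels.

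Mttp, the lipid loader, differed little between genotypes in either table (chromosome 3, 138089855 to 138143418, minus strand). Its 7 high-fat intervals summed to 51.0, 51.6, 52.0 and 56.5 CPM in LKO and 51.7, 52.4, 47.6 and 52.1 CPM in floxed livers, a fold change of 0.05 (SE 0.08, edgeR adjusted p = 0.888). The 4 chow intervals summed to 60.0, 44.1 and 55.2 CPM in LKO and 52.8, 42.0 and 52.2 CPM in floxed livers, at 0.12 (SE 0.13, edgeR adjusted p = 0.788). Groups overlapped in both. The highest interval lay 12.1 kb into the gene. It held, in the high-fat table (138131092 to 138131592), 17.1, 14.2, 17.5 and 15.9 CPM in LKO and 15.1, 16.3, 15.5 and 17.6 CPM in floxed livers, and in the chow table (138131086 to 138131586) 22.3, 18.0 and 23.7 against 19.8, 14.5 and 21.98 CPM. The smallest p among the high-fat intervals belonged to one near the far end (138096578 to 138097078), at 0.52 (SE 0.27, edgeR adjusted p = 0.532). On chow it belonged to the one nearest the start, 9.79 kb into the gene (138133383 to 138133883), at 0.40 (SE 0.20, edgeR adjusted p = 0.753). The nearest high-fat one, 9.16 kb in (138134012 to 138134512), had a fold change of -0.06 (SE 0.29). No interval assigned to Mttp covered the 250 bases before its start, where the neighbouring gene Trmt10a lies 30 bp away. Trmt10a summed to a fold change of 0.07 (SE 0.09) on the high-fat diet and 0.18 (SE 0.11) on chow.

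Apoa4 was the gene whose intervals rose (chromosome 9, 46240844 to 46243458). With high-fat feeding 3 of its 9 intervals were called, all 9 had a fold change above 0, and the median was 0.82. By name 8 of the 9 came from peak calls in LKO, the 3 called ones among them. Their shared direction and median are therefore not independent of how intervals were chosen. Just beyond the far end of the gene, 2.90 kb from its start, an interval (46243497 to 46243997) held 6.65, 14.4, 10.2 and 19.7 CPM in LKO and 3.15, 4.10, 7.29 and 4.61 CPM in floxed livers. LKO 4 was the highest, and LKO 1 lay under floxed 3, so the groups overlapped there. The interval rose by 1.42 (SE 0.26, edgeR adjusted p = 0.00478). The next one (46244109 to 46244609) held 7.30, 12.6, 12.0 and 22.2 CPM in LKO and 4.72, 4.88, 8.04 and 4.61 CPM in floxed livers, again with LKO 1 under floxed 3, and rose by 1.28 (SE 0.25, edgeR adjusted p = 0.00714). Both calls were lost without LKO 4, at adjusted p-values of 0.0544 and 0.0902. On the other side, 1.80 kb before the start, the interval 46238790 to 46239290 held 11.7, 13.0, 13.7 and 11.4 CPM in LKO and 6.41, 8.09, 5.403 and 6.11 CPM in floxed livers. Here every LKO value lay above every floxed value, the interval rose by 0.93 (SE 0.18, edgeR adjusted p = 0.00825), and the call held with each library left out, at adjusted p-values of 0.00914 to 0.0433.

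The highest Apoa4 interval, nearest the start (46240887 to 46241387), held 16.7, 22.2, 33.4 and 34.1 CPM in LKO and 15.5, 17.5, 18.2 and 18.7 CPM in floxed livers. LKO 1 lay among the floxed values while LKO 3 and 4 were the highest, and the fold change of 0.60 (SE 0.17) did not pass (edgeR adjusted p = 0.0853). Summed over the gene, the level was 72.8, 116.1, 109.8 and 142 CPM in LKO against 62.0, 68.4, 75.0 and 60.9 CPM in floxed livers. LKO 1 was again the exception, lying under floxed 3. The sum rose by 0.73 (SE 0.14, edgeR adjusted p = 0.0243), a call lost without LKO 2, LKO 3, LKO 4, floxed 1 or floxed 4, at an adjusted p of up to 0.147. No Apoa4 interval was called on chow, where the 5 intervals summed to 56.9, 41.9 and 46.8 CPM in LKO and 64.4, 49.3 and 45.9 CPM in floxed livers, at -0.13 (SE 0.15, edgeR adjusted p = 0.793). The chow interval at the start (46240423 to 46240923), which covers all 250 printed bases, held 19.9, 13.4 and 13.8 CPM in LKO and 21.2, 17.6 and 17.3 CPM in floxed livers, at -0.25 (SE 0.18, edgeR adjusted p = 0.789). Neither called interval beyond the far end of the gene had a chow match. The chow match of the third (46238803 to 46239303) held 7.08, 6.15 and 6.78 CPM in LKO and 8.397, 4.89 and 4.16 CPM in floxed livers, at 0.19 (SE 0.26), and its difference between diets of 0.76 (SE 0.30) did not pass (edgeR adjusted p = 0.527). Of the 250 bases the high-fat intervals of Apoa4 cover 10.

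**Figure D3:**
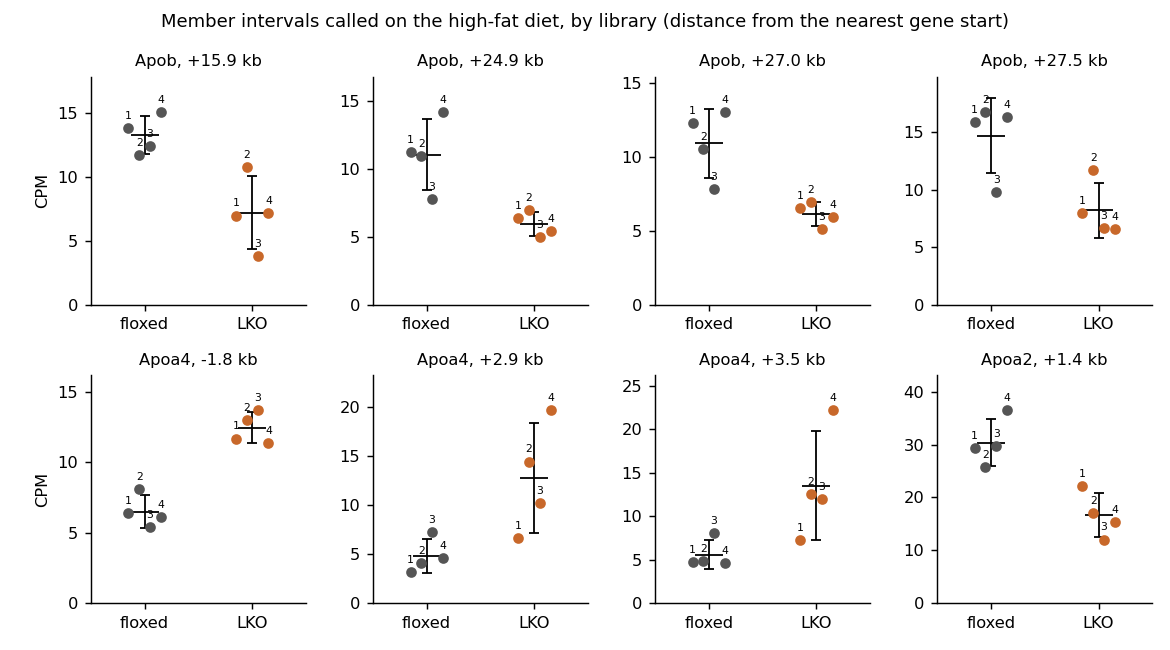
CPM in each library (numbered points) with the group mean and SD for the 8 intervals called on the high-fat diet, n = 4 per genotype; titles give the gene and the distance from its nearest annotated start. The 4 Apob intervals and the Apoa2 interval are lower in LKO and the 3 Apoa4 intervals are higher, with overlapping groups in 1 Apob and 2 Apoa4 intervals.

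Apoa1, the main protein of HDL and the first gene of the cluster by coordinate (chromosome 9, 46228630 to 46230469), had no called interval. At its start on the high-fat diet (46228450 to 46228950) the values were 41.1, 33.9, 28.9 and 39.0 CPM in LKO and 36.9, 45.1, 31.3 and 44.2 CPM in floxed livers, at -0.14 (SE 0.12, edgeR adjusted p = 0.769). The smallest p lay 1.49 kb further on (46229874 to 46230374), with 33.6, 22.1, 15.3 and 19.1 CPM in LKO and 38.5, 47.3, 25.1 and 27.998 CPM in floxed livers. LKO 1 lay inside the floxed range, and the fold change of -0.62 (SE 0.18) did not pass (edgeR adjusted p = 0.106). The sum over 7 intervals was at -0.29 (SE 0.16, edgeR adjusted p = 0.571), from 122 ± 30.6 CPM in LKO and 150.2 ± 35.5 CPM in floxed livers (SD, n = 4). On chow the start (46228421 to 46228921) held 54.7, 42.5 and 43.1 CPM in LKO and 60.7, 44.0 and 67.5 CPM in floxed livers, at -0.30 (SE 0.16, edgeR adjusted p = 0.763). The interval just past the end of the gene (46230555 to 46231055) was the highest chow interval of Apoa1, with 86.8, 70.2 and 67.8 CPM in LKO and 121, 91.0 and 142 CPM in floxed livers. Its groups did not overlap, and at -0.65 (SE 0.16) its adjusted p was 0.316 with edgeR, 0.0398 with DESeq2 and 0.0456 with limma-voom.

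Apoc3, whose product slows the clearance of triglyceride (chromosome 9, 46233050 to 46235636), lay close to 0 throughout. Its highest high-fat interval (46235059 to 46235559) held 26.0, 28.7, 25.2 and 31.2 CPM in LKO and 35.6, 31.0, 22.9 and 30.1 CPM in floxed livers, at -0.11 (SE 0.13, edgeR adjusted p = 0.848). The smallest high-fat p belonged to an interval before the gene's lower bound (46232513 to 46233013), at -0.34 (SE 0.20, edgeR adjusted p = 0.616). On chow the highest interval (46235102 to 46235602) held 41.4, 30.5 and 37.7 CPM in LKO and 39.8, 34.4 and 43.0 CPM in floxed livers, at -0.10 (SE 0.14). Another (46233274 to 46233774) held 16.1, 13.0 and 12.3 CPM in LKO and 16.7, 16.9 and 17.9 CPM in floxed livers, at -0.31 (SE 0.15, edgeR adjusted p = 0.749), without overlap. All 7 chow intervals and 5 of 6 high-fat intervals had a fold change below 0, and the sums were at -0.24 (SE 0.15) on chow and -0.14 (SE 0.14) on the high-fat diet.

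Apoa5, which aids lipolysis (chromosome 9, 46268608 to 46271921), had its strongest interval just past the end of the gene. On chow this interval (46271956 to 46272456) held 72.6, 46.8 and 40.3 CPM in LKO and 134, 64.9 and 144 CPM in floxed livers. Floxed 2 lay below LKO 1, and the fold change was -1.10 (SE 0.28, edgeR adjusted p = 0.351). The one before it (46271428 to 46271928) held 47.0, 27.0 and 25.3 CPM in LKO and 99.2, 42.6 and 92.7 CPM in floxed livers, at -1.24 (SE 0.30, edgeR adjusted p = 0.326). Both passed with edgeR without floxed 2, at adjusted p-values of 0.00693 and 0.0064, but neither passed without both libraries numbered 2. The share called of all chow intervals in these fits is not given here, so the calls cannot be read as particular to Apoa5. At the start (46268398 to 46268898), over 210 of the 250 printed bases, chow values were 51.5, 28.8 and 35.0 CPM in LKO and 55.7, 32.4 and 58.1 CPM in floxed livers, at -0.34 (SE 0.24, edgeR adjusted p = 0.785).

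On the high-fat diet the strongest Apoa5 interval (46271933 to 46272433) held 140.1, 62.1, 54.6 and 76.8 CPM in LKO and 59.1, 126, 81.4 and 94.0 CPM in floxed 1 to 4. LKO 1 and floxed 2 were the highest, so the groups were interleaved, at -0.11 (SE 0.19, edgeR adjusted p = 0.907). The start (46268408 to 46268908) held 42.4, 30.6, 35.5 and 34.8 CPM in LKO and 32.7, 41.6, 30.8 and 38.4 CPM in floxed livers, at 0.00 (SE 0.12). The smallest p, 1.40 kb into the gene (46269785 to 46270285), came with 9.55, 7.94, 9.79 and 9.47 CPM in LKO and 13.9, 18.7, 7.92 and 13.6 CPM in floxed livers, at -0.57 (SE 0.20, edgeR adjusted p = 0.226). Over the gene, the high-fat sum was at -0.15 (SE 0.16, edgeR adjusted p = 0.835).

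Taken as 1 locus, the 4 neighbours held 31 chow and 35 high-fat intervals. The high-fat sum was 784, 668, 506 and 637 CPM in LKO and 628, 863, 569 and 652 CPM in floxed livers, interleaved, with a fold change of -0.06 (SE 0.13, edgeR adjusted p = 0.921). Its sign turned to 0.04 without LKO 3 and to 0.08 without floxed 2. On chow the sum was 998, 659 and 685 CPM in LKO and 1237, 809 and 1280.0 CPM in floxed livers, where floxed 2 lay below LKO 1, at -0.51 (SE 0.21, edgeR adjusted p = 0.717). Within the high-fat cluster 13 intervals had a fold change above 0, 9 of them in Apoa4, and 22 below 0, none of them in Apoa4. The flanking genes did not pass: Sik3, 4.44 kb before the cluster, summed to -0.02 (SE 0.09) on the high-fat diet and -0.07 (SE 0.14) on chow, and Zpr1, 1.14 kb after it, to -0.06 (SE 0.14) and -0.79 (SE 0.24, edgeR adjusted p = 0.718). Over the 8 high-fat libraries the gene sums that followed the cluster most closely, among genes with at least 5 intervals, were Akap1 (Pearson r = 0.962), Ppp4r3a (0.955), Gm38821 (0.953), Mtarc1 (0.950) and Srcap (0.945). These values describe libraries that share their scaling, and the fold changes of the 5 genes lay between -0.04 and 0.00.

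**Figure D4:**
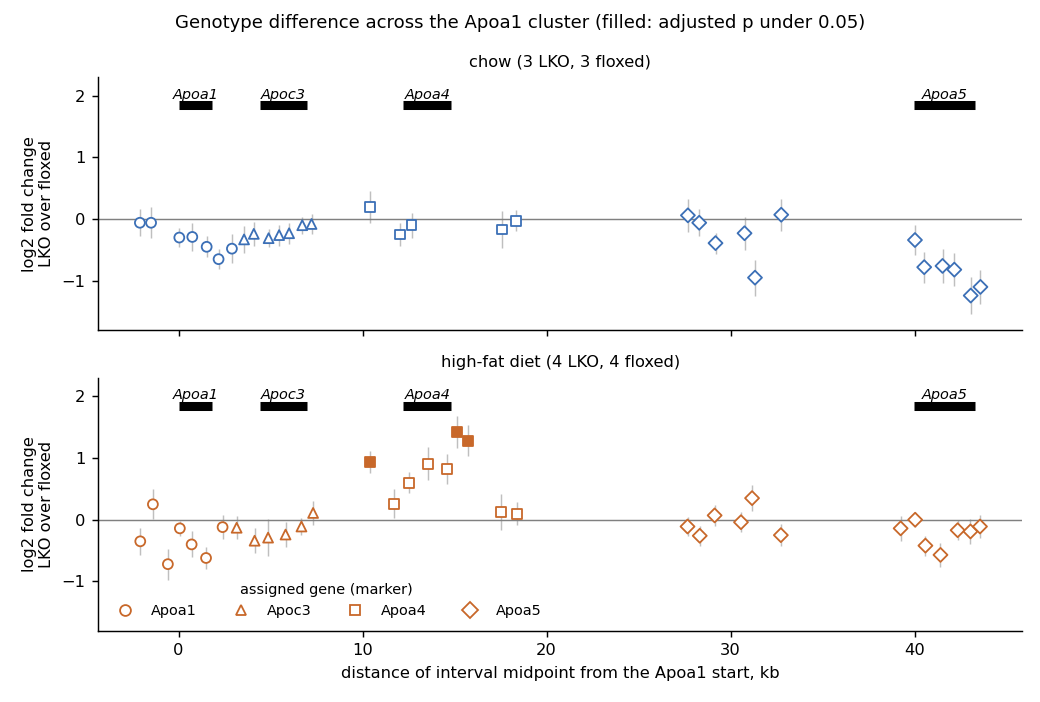
Log2 fold change, LKO over floxed, of each interval of the Apoa1 cluster against the distance of its midpoint from the Apoa1 start in kb, for chow (upper panel) and the high-fat diet (lower panel); marker shapes give the assigned gene, black bars the gene bounds, vertical lines the standard errors, and filled symbols are called. On the high-fat diet the Apoa4 intervals lie above 0 (up to 1.42) between lower values of Apoa1 and Apoc3 on one side and Apoa5 on the other, whereas on chow the Apoa5 end is lowest (-1.24).

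Apoa2, the other main protein of HDL (chromosome 1, 171221564 to 171226379), fell on the high-fat diet. One interval (171222699 to 171223199), 1.39 kb after its upstream start and 2.11 kb before its downstream start, held 22.1, 17.0, 12.0 and 15.4 CPM in LKO and 29.3, 25.8, 29.8 and 36.5 CPM in floxed livers. Every LKO value lay below every floxed value, and the interval fell by 0.86 (SE 0.15, edgeR adjusted p = 0.00276), the smallest adjusted p of the 129 intervals. The call held with each library left out, at adjusted p-values of 0.000303 to 0.0321. The strongest interval (171223720 to 171224220) held 26.6, 23.2, 24.8 and 24.6 CPM in LKO and 33.4, 31.4, 29.4 and 48.6 CPM in floxed livers, also without overlap, at -0.52 (SE 0.13, edgeR adjusted p = 0.0519). At the downstream start (171224709 to 171225209), over all 250 printed bases, the values were 20.7, 16.3, 18.4 and 15.8 CPM in LKO and 24.8, 20.9, 19.1 and 27.1 CPM in floxed livers, with LKO 1 above floxed 3, at -0.37 (SE 0.14, edgeR adjusted p = 0.304).

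The 2 intervals given to Tomm40l fell as well, on the side of the upstream start. One (171222187 to 171222687) held 44.6, 33.4, 29.0 and 26.4 CPM in LKO and 55.2, 54.5, 55.5 and 64.2 CPM in floxed livers without overlap, and fell by 0.78 (SE 0.12, edgeR adjusted p = 0.000785). The other (171221648 to 171222148) held 30.6, 26.4, 19.3 and 11.2 CPM in LKO and 41.8, 41.4, 34.6 and 58.6 CPM in floxed livers, also without overlap, and fell by 1.0 (SE 0.18, edgeR adjusted p = 0.00426).

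All 7 high-fat Apoa2 intervals had a fold change below 0, and by name 0 of the 7 came from peak calls in LKO. Their sum was 101.6, 96.0, 79.6 and 83.4 CPM in LKO and 134.0, 127, 114.5 and 151 CPM in floxed livers, without overlap, and fell by 0.54 (SE 0.09, edgeR adjusted p = 0.0106). That call was lost without LKO 3, LKO 4 or floxed 4, at an adjusted p of up to 0.0815. The neighbour Tomm40l, which overlaps the upstream start of Apoa2 and encodes a mitochondrial import protein, fell too, by 0.72 (SE 0.14, edgeR adjusted p = 0.0244), with 3 of its 7 intervals called, among them the 2 inside Apoa2. Fcer1g, 3.19 kb beyond the other end, was at -0.20 (SE 0.09, edgeR adjusted p = 0.497).

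On chow all 8 Apoa2 intervals had a fold change above 0, and by name 5 of the 8 came from peak calls in LKO. The one with the smallest p (171225734 to 171226234) held 24.9, 21.0 and 20.7 CPM in LKO and 17.0, 14.97 and 15.03 CPM in floxed livers without overlap, at 0.50 (SE 0.14, edgeR adjusted p = 0.426). The downstream start (171224712 to 171225212) held 45.6, 38.0 and 34.3 CPM in LKO and 35.0, 25.3 and 32.3 CPM in floxed livers, at 0.35 (SE 0.15, edgeR adjusted p = 0.736). The strongest interval (171222420 to 171222920) held 38.2, 32.4 and 41.3 CPM against 40.5, 33.4 and 35.9 CPM, at 0.03 (SE 0.13). The chow sum was 248, 201 and 204 CPM in LKO and 223, 145.2 and 167 CPM in floxed livers, at 0.29 (SE 0.16, edgeR adjusted p = 0.718).

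Apoe, the ligand for uptake of remnant particles (chromosome 7, 19696244 to 19701310, minus strand), had no called interval. The smallest p on the high-fat diet lay 790 bp beyond the gene (19695204 to 19695704), where the values were 11.7, 11.3, 8.62 and 9.72 CPM in LKO and 13.0, 21.4, 15.7 and 15.9 CPM in floxed livers. The groups did not overlap, and the fold change of -0.68 (SE 0.17) had an adjusted p of 0.0519 with edgeR and 0.0411 with DESeq2. The interval nearest an annotated start (19698800 to 19699300) held 22.3, 30.6, 24.03 and 25.1 CPM in LKO and 25.4, 29.6, 28.8 and 26.6 CPM in floxed livers, at -0.11 (SE 0.12). The highest (19700926 to 19701426) was at -0.06 (SE 0.11), and the sum over 10 intervals at -0.27 (SE 0.10, edgeR adjusted p = 0.347), with 144.7, 178, 123 and 134 CPM in LKO against 167, 200.1, 161 and 169 CPM in floxed livers. On chow all 10 intervals were above 0, and by name 8 of the 10 came from peak calls in LKO. The highest (19694695 to 19695195) held 70.2, 48.2 and 58.3 CPM in LKO and 60.5, 40.7 and 35.0 CPM in floxed livers, overlapping, at 0.38 (SE 0.20, edgeR adjusted p = 0.758). The chow interval at a start (19698163 to 19698663) was at 0.29 (SE 0.18, edgeR adjusted p = 0.774), and the chow sum at 0.17 (SE 0.19, edgeR adjusted p = 0.790).

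Apoc1, a small apolipoprotein encoded beside Apoe (chromosome 7, 19689480 to 19692659), had no called interval either. Its highest high-fat interval (19693489 to 19693989) lay between both genes and held 19.0, 17.1, 15.7 and 14.1 CPM in LKO and 13.3, 17.7, 13.2 and 13.3 CPM in floxed livers, at 0.20 (SE 0.15, edgeR adjusted p = 0.729). The smallest p belonged to a weak interval inside the gene (19690228 to 19690728), with 3.76, 3.75, 3.26 and 3.03 CPM in LKO and 7.42, 5.36, 3.77 and 6.68 CPM in floxed livers, without overlap, at -0.75 (SE 0.26, edgeR adjusted p = 0.218). Its sums were at -0.12 (SE 0.10) on the high-fat diet and 0.17 (SE 0.17) on chow. On chow 13 of 14 intervals were above 0, the highest of them (19692379 to 19692879) at 0.24 (SE 0.18) and the one with the smallest p (19693484 to 19693984) at 0.43 (SE 0.20, edgeR adjusted p = 0.744). Tomm40, 3 bp past the Apoe bound, summed to 0.02 (SE 0.08) on the high-fat diet and 0.33 (SE 0.11, edgeR adjusted p = 0.718) on chow. Gm44805, on the other side, had no interval.

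Apom, which carries sphingosine-1-phosphate on HDL (chromosome 17, 35128997 to 35131801, minus strand), held a single interval, at its start. Its high-fat values (35131647 to 35132147) were 7.51, 9.38, 7.70 and 8.96 CPM in LKO and 12.2, 12.0, 6.41 and 9.33 CPM in floxed livers, at -0.26 (SE 0.20, edgeR adjusted p = 0.724). On chow (35131608 to 35132108) they were 13.5, 10.2 and 13.6 CPM in LKO and 11.8, 9.16 and 12.3 CPM in floxed livers, at 0.17 (SE 0.18, edgeR adjusted p = 0.846). Both pairs of groups overlapped. Its neighbours D17H6S53E and Bag6 lay between -0.03 and 0.23 in both tables.

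**Figure D5:**
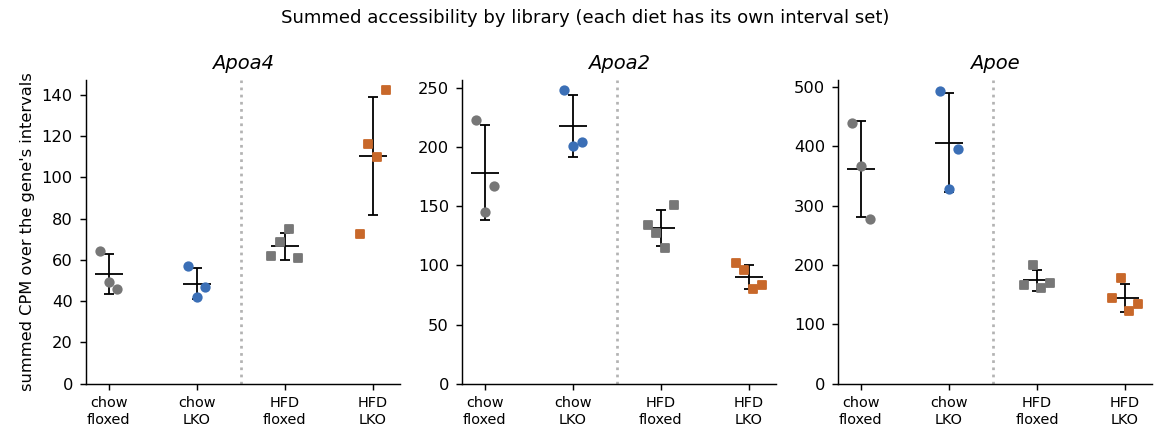
CPM summed over all intervals of Apoa4, Apoa2 and Apoe in each library (circles chow, squares high-fat diet), with group means and SD, n = 3 per chow group and 4 per high-fat group. High-fat LKO livers lie above floxed ones for Apoa4 apart from LKO 1 (72.8 CPM), and below them for Apoa2 without overlap; levels are not comparable between diets because each table has intervals of its own.

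Whether the genotype difference itself differed by diet was tested on 99 intervals of the 10 genes that matched 1 to 1 between the tables, in 1 edgeR fit of all 14 libraries. None was called, as 0.183% of all 73945 matched intervals were, while limma-voom called 1, in Apoa2, beside 0.672% of all, and the replicate block 3, in Apoa2, Apoe and Apoa5, beside 0.407%. An unadjusted edgeR p under 0.05 was reached by 20 of the 99 (20.2%), as by 7.44% of all. The smallest edgeR adjusted p of the 99 was 0.156, at the Apoa2 interval with the smallest chow p, where the high-fat fold change was lower than the chow one by a log2 difference of -0.80 (SE 0.20). Outside the 99, the chow Apoa2 interval 171222420 to 171222920 matched one of those given to Tomm40l, at -0.78 (SE 0.19, edgeR adjusted p = 0.105). In gene sums over matched intervals, a test added after the data were seen, 0 of the 10 genes passed with edgeR, beside 0.0328% of all genes. An unadjusted edgeR p under 0.05 was reached by 2 of the 10, as by 6.76% of all genes. Those were Apoa2, at -0.79 (SE 0.19, edgeR adjusted p = 0.229), and Apoa4, at 0.58 (SE 0.20, edgeR adjusted p = 0.547). With the replicate block Apoa2 passed (-0.80, edgeR adjusted p = 0.00156), beside 0.8% of all genes. Apoe was at -0.42 (SE 0.21), Apoa5 at 0.58 (SE 0.33) and Apob at -0.08 (SE 0.22). Leaving out chow floxed 1 gave 1 call, at the Apoe interval 19694695 to 19695195 (-1.17, edgeR adjusted p = 0.0171). Leaving out chow floxed 2 gave 1 call, in Apoa5 (edgeR adjusted p = 0.036). For these reduced fits the share called of all matched intervals is not given here, so the calls cannot be read as particular to Apoe or Apoa5. In the test of a difference between diets, diet cannot be told apart from other differences between the tables. The high-fat mice were fasted per the labels, and the feeding state of the chow mice was not given. The libraries also differed in depth, and matched intervals could be shifted against each other.

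Other genes of lipoprotein metabolism were examined from 4 lists, read against the 0.303% of all high-fat intervals that were called lower. The calls below number 4 in all and are given as single intervals, not as a change of a list. Among 7 other apolipoprotein genes 0 of 45 high-fat and 0 of 38 chow intervals were called by edgeR, with medians of 0.09 and 0.01, and the smallest p-values belonged to Apoh on the high-fat diet (-0.75, SE 0.26, edgeR adjusted p = 0.226) and Clu on chow (-0.72, SE 0.26, edgeR adjusted p = 0.635). Of the 15 partners of VLDL assembly and secretion, Dgat2, which makes triglyceride, had 1 of the 142 high-fat intervals of its list called, lower (0.704%). That interval (chromosome 7, 99179030 to 99179530) held 8.69, 9.93, 4.44 and 6.57 CPM in LKO and 16.6, 14.9, 9.93 and 12.2 CPM in floxed livers, where LKO 2 and floxed 3 met, and fell by 0.85 (SE 0.21, edgeR adjusted p = 0.0443). Of the 20 genes of remodelling and uptake, Angptl8, which takes part in the inhibition of lipoprotein lipase, had 1 of 321 called, lower (0.312%). It held 6.33, 10.3, 3.395 and 4.42 CPM in LKO and 21.4, 14.3, 9.05 and 8.30 CPM in floxed livers, with LKO 2 above floxed 3 and floxed 4, and fell by 1.11 (SE 0.27, edgeR adjusted p = 0.0414). Among 24 regulators, Ppara, the fatty acid receptor that drives fat oxidation, held the 2 intervals called lower of 666 (0.3%). The stronger call (chromosome 15, 85750025 to 85750525) held 4.40, 6.62, 2.48 and 3.28 CPM in LKO and 7.30, 8.78, 8.29 and 13.4 CPM in floxed livers without overlap, and fell by 1.15 (SE 0.25, edgeR adjusted p = 0.0186). These 3 calls were each lost without LKO 3 or LKO 4 and without at least 1 floxed library, at adjusted p-values of up to 0.205, 0.216 and 0.162. The high-fat medians of the 3 lists were -0.19, 0.02 and -0.10. On chow none of their intervals was called by edgeR, with medians of 0.08, -0.07 and 0.00, and the smallest p-values belonged to Sar1b (-0.51, SE 0.19, edgeR adjusted p = 0.649), Lrp1 (-0.80, SE 0.18, edgeR adjusted p = 0.280) and Foxa2 (-1.22, SE 0.19, edgeR adjusted p = 0.0958). No gene sum of the 4 lists passed in either table.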

How the data were processed

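The authors deposited whole-number counts of aligned reads per 501 bp interval and library, 1 table per diet, in mm10 coordinates, per the labels. Positions here are 1-based. Per the submitters' processing notes, which state no roles, the tools included HOMER 4.11, MACS2 2.2.7.1, Bowtie2 2.4.2 and Trim Galore 0.6.7, with bedtools, ChIPseeker and DESeq2. Treatment of duplicates, mitochondrial reads and the transposase offset was not given in the sources used here. Interval names carry the genotype whose calls gave them, so intervals were chosen on the libraries compared. High-fat columns match single labels, and chow columns match a group only. Since titles number each female, a library was taken to be 1 animal, and p-values measure the spread between these animals.

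The 10 genes and the lists were chosen with earlier results of these data known. All intervals named for a gene are the called ones (at most 6), the one with the highest mean, the one with the smallest p and the one nearest an annotated start. Of each list, genes with a called interval and the gene with the smallest p are named. Each table was fitted whole with edgeR 4.0.16 under R 4.3.3 (scaling by TMM, filterByExpr, which removed no row, quasi-likelihood test, Benjamini-Hochberg at 0.05) on intervals, on counts summed per gene and on gene sums with the 4 cluster genes merged. CPM values use TMM factors. Genes came from 21900 protein-coding RefSeq entries. Tables were matched 1 to 1 at 50% overlap or more for the test of a difference between diets. DESeq2 1.42.0, limma 3.58.1, other scalings, filters, a 10 kb assignment, a replicate block and leaving out each library were alternatives.

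On simulated counts the chow interval fit over 88203 rows recovered 52% of changes of 1 and 100% of changes of 2 on the log2 scale (8 false calls), and the high-fat fit over 105801 rows 61% and 100% (4 false calls). These counts were drawn independently for each library at the trended dispersion. They lack joint deviations of libraries such as those given below, so recovery in the real libraries may be lower. Member intervals held a median of 365 reads per chow library and 76 per high-fat library, with a lowest value of 32 and 7. Columns of the same number deviated together in the chow table (correlations of 0.184, 0.533 and 0.189), where the labels use other names, and not all did in the high-fat table (0.0676, 0.131, 0.177 and -0.0105), so no pairing was assumed.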

Additional observations from a re-analysis of the deposited data

Results flagged for a closer look

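In 78 groups of 4 high-fat libraries (gene sums and named intervals), 1 library lay far from the other 3 in 6 groups, all floxed. By chance about 1 group in 20 would be marked. For the Mttp sum floxed 3 was low at 47.6 CPM, the others lying at 51.7 to 52.4. For the Apoc1 sum floxed 2 was high at 173 CPM, against 124 to 131. At the Apob interval 8004921, floxed 3 was low at 9.80 CPM, against 15.8 to 16.8, and it is the library that overlaps the LKO values there. At the Apoa4 interval 46244109, floxed 3 was high at 8.04 CPM, against 4.61 to 4.88. At the Apoc3 interval 46232513 floxed 2 was high at 12.0 CPM, against 9.30 to 9.56, and at the Apoc1 interval 19693489 at 17.7 CPM, against 13.2 to 13.3.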

How the results depend on the processing

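Of 614 alternative values for 40 results, 540 kept their direction and side of the threshold, or their count within 1.5 times. On chow, edgeR called 0 member intervals, DESeq2 1 and limma-voom 1, and leaving out single libraries gave 0 to 6. On the high-fat diet the 8 calls became 2 to 17 with single libraries left out, and the 2 gene sums 0 to 2. For fits with a library left out, the share called of all intervals is not given here. With the replicate block 19 high-fat intervals were called (5 higher, 14 lower), beside 1.34% of all high-fat intervals. The block also called 4 high-fat gene sums (adding Apob at -0.39 and Apoe at -0.27). The share of all high-fat gene sums called with it is not given here, so this count cannot be read as particular to the 10 genes. On chow the block called 0 of either. For the difference between diets, 0 calls became 1 with limma-voom, 3 with the replicate block and 0 to 1 with libraries left out, and the gene sums, added after the data were seen, gave 1 with the block (Apoa2) and 0 to 1. The block rests on column numbers that the labels do not tie to a shared animal or day, and the cause of these shifts was not tested. Signs turned only with single libraries left out: the high-fat cluster ranged from -0.17 to 0.08 (0.04 without LKO 3 and 0.08 without floxed 2), high-fat Apoa5 from -0.36 to 0.02 and Apoc1 from -0.18 to 0.01 (both turning without floxed 2), chow Apoa4 from -0.26 to 0.04 (without floxed 1) and chow Apoc1 from -0.01 (without LKO 1) to 0.34. The other scalings, no filter, a minimum of 1 CPM, the 10 kb assignment, 80% overlap and counting intervals inside 2 genes for the member (10 high-fat calls) left every count within 1.5 times. With 7.59 to 10.4 M reads per high-fat library, changes near 1 on the log2 scale were recovered in 61% of simulated intervals, so smaller ones can be missed.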

Other observations

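Interval names record the genotype whose calls gave them, which depends on the same libraries and is no independent evidence. The high-fat Apoa4 intervals that passed came from LKO calls, and the Apob and Apoa2 ones that passed from floxed calls. On the high-fat diet 8 of 9 Apoa4 intervals came from LKO calls, against 0 of 7 for Apoa2 and 15 of 57 for Apob. On chow the numbers were 1 of 5, 5 of 8 and 17 of 50. Among the genes with no called interval, LKO calls gave 4 of 4 chow intervals of Mttp, 8 of 10 of Apoe, 12 of 14 of Apoc1 and 1 of 1 of Apom. They gave 2 of 7 chow intervals of Apoa1, 1 of 7 of Apoc3 and 2 of 12 of Apoa5. The share over all intervals of each table is not given here, so these numbers were not set against it.

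Across the 8 high-fat libraries, the log2 gene sum of Apoa4 ran opposite to that of Apoa2 (Pearson r = -0.893) and of Apob (-0.661), whereas Apob followed Apoa2 (0.894) and Apoe (0.893). Across the 6 chow libraries Mttp followed Apom (0.986), on another chromosome, more closely than Apoa1 followed its neighbour Apoa5 (0.980). These are descriptions over few libraries that share their scaling and include both genotypes.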
